A study of Mus musculus with 36 samples.

Results

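The comparison of knockout and control liver at ZT22 (zeitgeber time, the hours after lights on), late in the dark phase, was made between 3 THRBKO and 3 THRBWT mice. Its members were chosen by their counts. They were the protein-coding genes with at least 100 counts summed over all 36 libraries of the series, which left 14193 of 22046 protein-coding genes and of 54532 annotated genes. Of the 7853 protein-coding genes below this minimum, 4300 had no count in any library. The 7 genes at exactly 100 counts included Als2cr12, with 8 counts in the THRBWT and 19 in the THRBKO libraries of ZT22, and Poln, with 12 and 4. Just outside were 11 genes with 99 counts, among them Adam7 with 11 and 24 counts. Of the members, 1 had no count in any of the 6 libraries of ZT22.

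All mice were male, 2 to 3 months old, fed chow and kept under a 12:12 light:dark cycle, and whole liver was taken every 4 h at 6 sampling times. THRBKO mice carried 2 altered alleles of the thyroid hormone receptor beta gene (THRB-/-), and the THRBWT controls, labelled WT, were heterozygous (THRB+/-) and so carried 1 altered allele. The strain, B6.129S1-Thrbtm1Df/J, was bred on C57Bl/6NCrl. The allele impairs DNA binding of the receptor in the whole body, so no value below separates the liver from other organs. Each library was made from the liver of a separate mouse.

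Thyroid hormone enters the hepatocyte through membrane carriers, is activated or inactivated by deiodinases and acts through nuclear receptors that bind DNA at short repeats, mostly as heterodimers with the retinoid X receptor. THRB is the main receptor form of the hepatocyte. Known targets act in cholesterol and bile acid metabolism, lipogenesis and fatty acid oxidation. Dio1, the type 1 deiodinase, is among the most responsive liver genes. Cytochrome P450 genes of the Cyp2b, Cyp2c and Cyp3a families are controlled by the receptors CAR and PXR, and many of them also differ between male and female mouse liver under the pattern of growth hormone.

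Total counts ranged from 30613456 to 31353311 in the THRBWT and from 35868938 to 37534917 in the THRBKO libraries of ZT22, without overlap (two-sided exact permutation test, p = 0.1, the smallest that 3 against 3 allows). Between 21098 and 21331 genes were detected in THRBWT and between 21336 and 21428 in THRBKO libraries (exact p = 0.1). THRBKO mouse b stood apart. Its mean Spearman correlation with the other ZT22 libraries was 0.988, while the other 5 libraries had 0.990 to 0.992. Hepatocyte markers summed to between 93148 and 108634 CPM (counts scaled to a library of 1e6 counts) in the 6 libraries, and all 12 were detected. The summed level of 10 stellate cell markers was 436 to 498 CPM in THRBWT and 520 to 599 CPM in THRBKO mice, and that of 9 sinusoidal endothelial markers was 248 to 263 and 266 to 313 CPM. The summed level of 7 cholangiocyte markers was 44.8 to 49.7 and 37.1 to 44.4 CPM. These 3 sums did not overlap between the genotypes (exact p = 0.1 each), and their part in the gene results was not tested. On average over genes, log2 CPM of the 10 stellate and the 9 endothelial markers did not overlap either. The 5 cholangiocyte markers tested as genes did overlap. Their mean relative to THRBWT was -0.08, 0.06 and 0.02 in THRBWT and -0.27, 0.10 and -0.11 in THRBKO mice. In whole tissue, fewer cells of a type and less RNA per cell cannot be told apart. The sums overlapped for Kupffer cells (277 to 419 and 287 to 481 CPM), T and NK cells (2.88 to 5.33 and 2.29 to 4.19 CPM), B cells (2.84 to 6.94 and 3.80 to 5.41 CPM) and erythroid cells (314 to 415 and 145 to 451 CPM). At 3 counts or fewer over the 6 libraries were 6 of 7 acinar pancreas markers and the adipocyte markers Retn and Lep.

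The targeted gene, Thrb (chr14:17660261-18038090, GRCm38), was detected in all 6 livers. Its level was 27.0, 30.7 and 27.9 CPM in THRBWT mice a, b and c and 30.7, 30.5 and 32.4 CPM in THRBKO mice a, b and c. The means of 28.5 ± 1.91 and 31.2 ± 1.06 CPM (SD, n = 3 mice each) gave a log2 difference, THRBKO minus THRBWT, of 0.13 (SE 0.132). This difference did not pass the test (edgeR quasi-likelihood test, adjusted p = 0.988). Counts summed over the gene do not separate transcripts of the altered allele from intact ones, so this level does not check the genotype labels.

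Of the 14193 members, 1 gene (0.00705%) passed an adjusted p under 0.05 in the edgeR test, and it was lower in THRBKO liver. DESeq2 called 14 genes, 8 higher and 6 lower. Without adjustment, 684 genes (4.82%) had a p under 0.05, 368 of them (2.59%) higher and 316 (2.23%) lower in THRBKO mice. For 782 genes (5.51%) all 3 THRBKO values lay above all 3 THRBWT values, and for 651 genes (4.59%) all lay below. The median log2 difference over all members was 0.02, the quartiles were -0.10 and 0.13, and the median SE of a gene was 0.164. A log2 difference beyond 1 in either direction was fitted for 372 genes, 207 above and 165 below.

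The gene that fell was Gm3839 (chr14:11280735-11356726, minus strand), annotated as protein-coding with the tag retrogene. Its level was 8.33, 6.94 and 7.75 CPM in THRBWT mice and 0.967, 0.618 and 0.785 CPM in THRBKO mice. All 3 knockouts were far below all 3 controls. Its log2 difference was -3.28 (SE 0.505, 95% interval -4.31 to -2.24, adjusted p = 0.00379). Without THRBKO mouse b the gene no longer passed (adjusted p = 0.0773), and no other gene did, with 393 genes then at an unadjusted p under 0.05. The gene also fell at the other 5 sampling times, which share no library with ZT22 (mean log2 difference -2.97, adjusted p = 4.12e-10).

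Gm3839 is a copy of Gapdh, the glycolytic enzyme glyceraldehyde-3-phosphate dehydrogenase. The GENCODE M21 transcripts of both aligned over 1232 bases with an identity of 99.1%, that is 11 differing bases, of which 7 lie in the 999 aligned coding bases. The first 90 coding bases of both are shown to make this likeness visible, with the 2 differing bases in capitals. They were read 5′ to 3′ from the minus strand of GRCm38 at chr14:11281844-11281933 for Gm3839, and between chr6:125163370-125165293, spliced across introns, for Gapdh.
Gm3839: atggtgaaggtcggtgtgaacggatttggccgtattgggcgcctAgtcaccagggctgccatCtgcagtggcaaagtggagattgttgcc
Gapdh: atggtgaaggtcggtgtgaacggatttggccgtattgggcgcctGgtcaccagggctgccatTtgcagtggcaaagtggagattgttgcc

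Besides Gm3839, 109 genes matched its transcript over at least 1000 bases at an identity of at least 90%, and 27 of them had enough counts to be tested. Gapdh itself was at 17.0, 19.9 and 12.9 CPM in THRBWT and 44.0, 29.8 and 17.5 CPM in THRBKO mice, with overlapping groups (log2 difference 0.87, adjusted p = 0.988). Gm7336, a processed pseudogene that is 99.4% identical to Gm3839, was at 7.70, 5.47 and 7.20 CPM in THRBWT and 5.50, 4.81 and 7.17 CPM in THRBKO mice. Over Gm3839 and these 27 tested genes, the summed levels were 83.7, 80.5 and 74.9 CPM in THRBWT mice. In THRBKO mice they were 98.2, 83.5 and 73.1 CPM, so the groups overlapped. The sum included Peli2, a protein-coding gene of chromosome 14 whose span holds the processed pseudogene Gm6498. Peli2 was at 19.65, 21.7 and 18.03 CPM in THRBWT and 21.54, 24.01 and 20.26 CPM in THRBKO mice. The sum is therefore not the level of Gapdh copies alone. How reads that match several genes were counted is not given in the sources used here. The split of reads between Gm3839 and the matching genes was not tested.

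The genes next in order of p were named in each direction until 12 were reached, and they did not pass the edgeR test over all 36 libraries. DESeq2 on the same counts called 12 of these 23 genes, namely Ctsc, Papss2, Gch1, Ndrg2, Pdp2, Cyp2c37, Cyp2b9, Acsm2, Snhg11, Itih3, Nuggc and Cspg5, with adjusted p between 0.00237 (Ctsc) and 0.0493 (Pdp2 and Cspg5). The adjusted p printed with each gene is that of edgeR. Ctsc, the lysosomal protease cathepsin C that activates serine proteases of immune cells, was at 77.9, 65.8 and 80.7 CPM in THRBWT and 120.4, 155.0 and 111.7 CPM in THRBKO mice. Papss2, which makes the sulfate donor for sulfotransferases, was at 151, 147 and 112 CPM in THRBWT and 202, 327 and 195 CPM in THRBKO mice. Both genes were without overlap, with log2 differences of 0.79 (SE 0.156, adjusted p = 0.0814) for Ctsc and 0.82 (SE 0.176, adjusted p = 0.133) for Papss2. Pdp2, a phosphatase that activates pyruvate dehydrogenase, was at 30.4, 32.3 and 26.1 CPM in THRBWT and 38.2, 44.6 and 41.8 CPM in THRBKO mice (log2 difference 0.49, adjusted p = 0.209). All of Ctsc, Papss2 and Pdp2 rose at the other 5 times, by a mean log2 difference of 0.61 (adjusted p = 3.40e-06) for Ctsc, 0.39 (adjusted p = 0.0127) for Papss2 and 0.40 (adjusted p = 2.08e-05) for Pdp2.

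Among the other genes with higher values in all 3 knockouts were P450s and regulators of signalling. Cyp2c37, a P450 that oxidises arachidonic acid, was at 144, 156 and 111 CPM in THRBWT and 251, 422 and 226 CPM in THRBKO mice (log2 difference 1.13, SE 0.282, adjusted p = 0.320). Its transcript is 95.9% identical to that of Cyp2c50 over 1809 bases, so reads may be shared between them. Cyp2b9, a female-biased P450, was at 0, 0.384 and 0.229 CPM in THRBWT and 4.03, 97.2 and 7.85 CPM in THRBKO mice. The size of its log2 difference of 7.44 (SE 1.94, adjusted p = 0.427) rested on THRBKO mouse b, without which it was 4.83. Gch1, which catalyses the first step of tetrahydrobiopterin synthesis, was at 101.9, 82.7 and 72.0 CPM in THRBWT and 149.2, 229.4 and 110.2 CPM in THRBKO mice (log2 difference 0.93, adjusted p = 0.133). The remaining 6 were Ndrg2 (0.37), Zfp715 (0.70), the aggrecan protease Adamts5 (0.83), Spry4, an inhibitor of receptor tyrosine kinase signalling (0.97), Tmem260 (0.74) and Spryd7 (0.58), with the log2 difference of each in parentheses. Tmem260 was at 11.1, 11.8 and 12.9 CPM in THRBWT and 18.5, 20.5 and 20.9 CPM in THRBKO mice, a narrow spread in both groups.

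Of the genes with lower values in all 3 knockouts, Acsm2 and Fabp2 handle fatty acids. Acsm2, a medium-chain acyl-CoA synthetase, was at 3.05, 2.68 and 3.44 CPM in THRBWT and 0.939, 0.834 and 0.681 CPM in THRBKO mice (log2 difference -1.90, SE 0.410, adjusted p = 0.133). Fabp2, a fatty acid-binding protein best known from the intestine, was at 58.8, 60.3 and 51.0 CPM in THRBWT and 31.0, 27.9 and 47.5 CPM in THRBKO mice (log2 difference -0.68, adjusted p = 0.427). The groups of Acsm2 were far apart, while THRBKO mouse c came close to the controls for Fabp2. Acsm2 fell at the other 5 times (mean log2 difference -0.99, adjusted p = 0.00462), and Fabp2 did not pass there (-0.13, adjusted p = 0.661).

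Itih3, a heavy chain of the inter-alpha-trypsin inhibitors that the liver secretes, was at 756, 903 and 907 CPM in THRBWT and 499, 423 and 661 CPM in THRBKO mice (log2 difference -0.70, adjusted p = 0.230). Cib3, a calcium- and integrin-binding protein, was at 12.2, 11.2 and 9.23 CPM in THRBWT and 3.67, 2.29 and 2.23 CPM in THRBKO mice (log2 difference -2.0, SE 0.509, adjusted p = 0.369). Cspg5, a chondroitin sulfate proteoglycan, was at 4.08, 5.34 and 4.84 CPM in THRBWT and 1.35, 1.08 and 1.05 CPM in THRBKO mice (log2 difference -2.03, SE 0.501, adjusted p = 0.319). For Cib3 and Cspg5 the highest knockout value was well below the lowest control value. Snhg11, a host gene of small nucleolar RNAs that the annotation lists as protein-coding, was at 24.3, 12.4 and 19.3 CPM in THRBWT and 4.17, 7.66 and 6.55 CPM in THRBKO mice (log2 difference -1.61, adjusted p = 0.209), and it fell at the other 5 times (-0.83, adjusted p = 0.00774).

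The other 5 genes with lower knockout values were Nuggc, a nuclear GTPase (log2 difference -3.05), the sorting nexin Snx32 (-0.83), Ggact, which degrades gamma-glutamylamines (-0.37), the calpain Capn8 (-2.13) and Treh, the trehalase (-1.25). Nuggc, Capn8 and Treh had means below 3 CPM in both groups. Of these 5 genes, 2 overlap another gene on the opposite strand. Ggact had 10111 counts over the 6 libraries and Pcca 15136, and Treh had 226 and Phldb1 1655. The libraries were not directional, so reads of such a pair cannot be told apart.

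**Figure D1:**
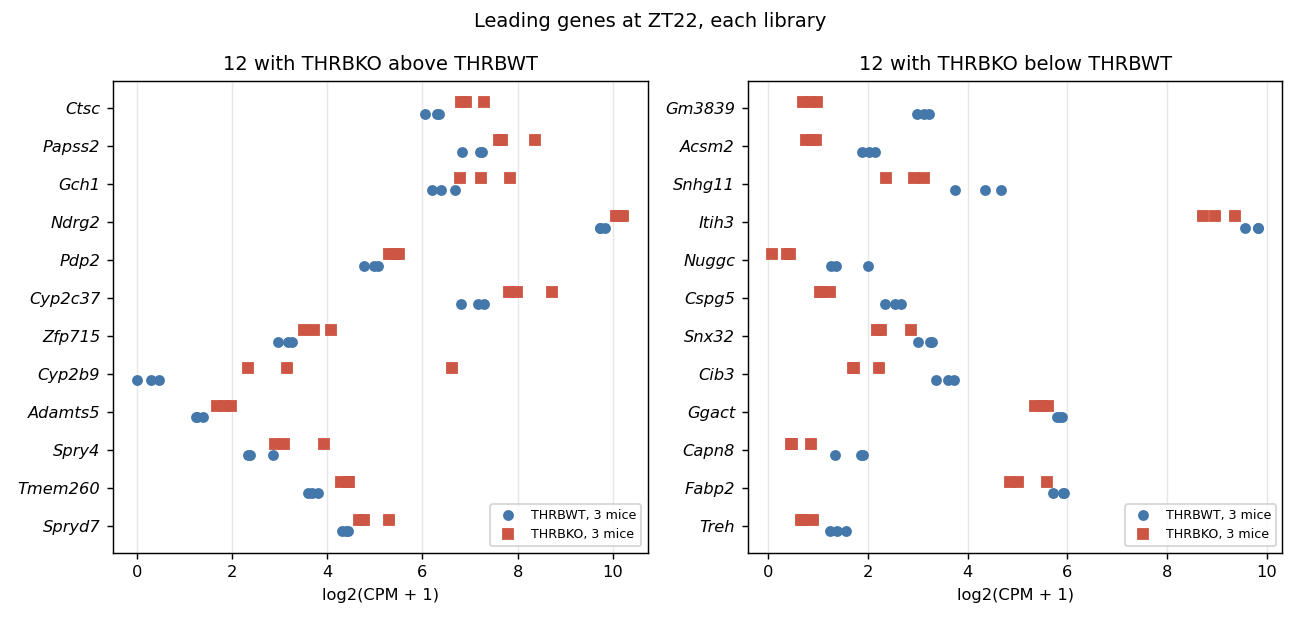
Level of the 24 named genes in each of the 6 ZT22 livers, as log2 of CPM plus 1 (x axis), with THRBWT mice as circles and THRBKO mice as squares. The groups do not overlap for any of the 24, and Cyp2b9 spreads most among the knockouts, from 4.03 to 97.2 CPM.

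The promoters of these genes were read for the hexamer AGGTCA, the half-site that thyroid hormone receptors share with other nuclear receptors, on either strand in the 250 bases before the annotated start (RefSeq sequences, GRCm38.p6). Of the 24 named genes 18 had a promoter in the table, and 3 of these (16.7%) held the hexamer, against 1226 of 11066 members (11.1%). The 3 promoters are shown with the half-site in capitals, which reads TGACCT where it lies on the other strand. They were Cyp2b9 at chr7:26173159-26173408, Papss2 at chr19:32619755-32620004 and Treh at chr9:44672983-44673232, all plus strand, with the half-site starting 138, 197 and 60 bases before the RefSeq start.
Cyp2b9: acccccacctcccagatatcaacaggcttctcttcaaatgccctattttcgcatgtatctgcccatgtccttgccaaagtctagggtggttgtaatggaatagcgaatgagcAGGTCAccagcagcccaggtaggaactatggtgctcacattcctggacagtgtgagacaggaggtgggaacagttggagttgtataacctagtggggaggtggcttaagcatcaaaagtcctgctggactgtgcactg
Papss2: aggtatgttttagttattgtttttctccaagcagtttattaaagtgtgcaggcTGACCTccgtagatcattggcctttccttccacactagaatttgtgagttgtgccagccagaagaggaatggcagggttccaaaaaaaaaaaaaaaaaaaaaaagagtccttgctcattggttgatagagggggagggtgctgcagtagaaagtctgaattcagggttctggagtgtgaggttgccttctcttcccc
Treh: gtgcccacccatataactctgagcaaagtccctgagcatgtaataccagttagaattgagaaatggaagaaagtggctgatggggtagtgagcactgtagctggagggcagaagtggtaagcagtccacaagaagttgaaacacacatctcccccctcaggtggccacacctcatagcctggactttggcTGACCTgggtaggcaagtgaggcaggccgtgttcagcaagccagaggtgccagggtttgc

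A hexamer of this kind is a match of letters and not a site that was measured to be bound. In the lists of genes described further on, it was found in 5 of 24 promoters of classical thyroid hormone targets (20.8%), 7 of 26 of CAR and PXR targets and P450s (26.9%), 4 of 16 of female-biased genes (25%) and 4 of 19 of male-biased genes (21.1%). The promoter of Dio1 in the table held none.

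The values at the other 5 sampling times come from 30 other libraries. There, 45 of 14193 genes (0.317%) passed the test for the mean genotype difference, 23 higher (0.162%) and 22 lower (0.155%) in THRBKO mice. Of the 24 genes named at ZT22, 22 had the same sign at the other times (91.7%, against 64.2% of all members), and 6 passed the test there. The 2 with the opposite sign were Adamts5 (0.83 at ZT22 and -0.02 at the other times) and Spry4 (0.97 and -0.12). Among all members with an unadjusted p under 0.05 at ZT22, 77.4% of those higher and 89.2% of those lower in THRBKO mice kept their sign. For the named genes these shares were 83.3% and 100%. The median log2 difference of the 12 genes with higher knockout values was 0.80 at ZT22 and 0.20 at the other times. For the 12 with lower values it was -1.75 and -0.78. These genes were ranked on ZT22, which by itself favours larger values at ZT22 than elsewhere.

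Whether the genotype difference at ZT22 departed from that at the other times was tested for each gene. No gene passed an adjusted p under 0.05 in the edgeR quasi-likelihood test against the mean of the other 5 times, with 299 genes (2.11%) at an unadjusted p under 0.05. None passed against ZT18, the preceding time (411 genes unadjusted, 2.90%), or against ZT2, the following one (278 genes, 1.96%). DESeq2 called 1 gene in each of the 3 tests, Cebpe. It had no count in the THRBWT libraries of ZT22, so the size of its change is not fixed by the data. It is described with its chromosome further on. The smallest p for a difference that was higher at ZT22 belonged to Spry4, Ajap1, Cdc42ep3, Adamts5 and Pdlim4, and for one that was lower to Nek8, Snx32, Vamp1, Pced1a and Mx1. No minimum CPM was set for this choice. Ajap1 was near the floor, at 0.0332, 0 and 0.0654 CPM in THRBWT and 0.138, 0.296 and 0.131 CPM in THRBKO mice. Pdlim4 was also low, with means of 0.631 and 1.19 CPM.

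Adamts5 was at 1.59, 1.41 and 1.34 CPM in THRBWT and 2.18, 2.93 and 2.62 CPM in THRBKO mice at ZT22. Snx32 was at 8.70, 6.9994 and 8.47 CPM in THRBWT and 3.78, 3.55 and 6.23 CPM in THRBKO mice, and its log2 difference was -0.83 at ZT22 and -0.07 at the other times. Nek8, a kinase of the primary cilium, was at 8.27, 7.51 and 7.56 CPM in THRBWT and 5.27, 5.46 and 5.68 CPM in THRBKO mice. The knockout values of Nek8 lay close together below the controls. Its log2 difference was -0.51 at ZT22 and 0.09 at the other times, and the change between them of -0.60 had an unadjusted p of 0.000563 and an adjusted p of 1. Mx1, an interferon-induced GTPase, had 1 THRBWT mouse at 4.52 CPM, while the other 5 livers had 1.13 to 2.02 CPM.

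**Figure D2:**
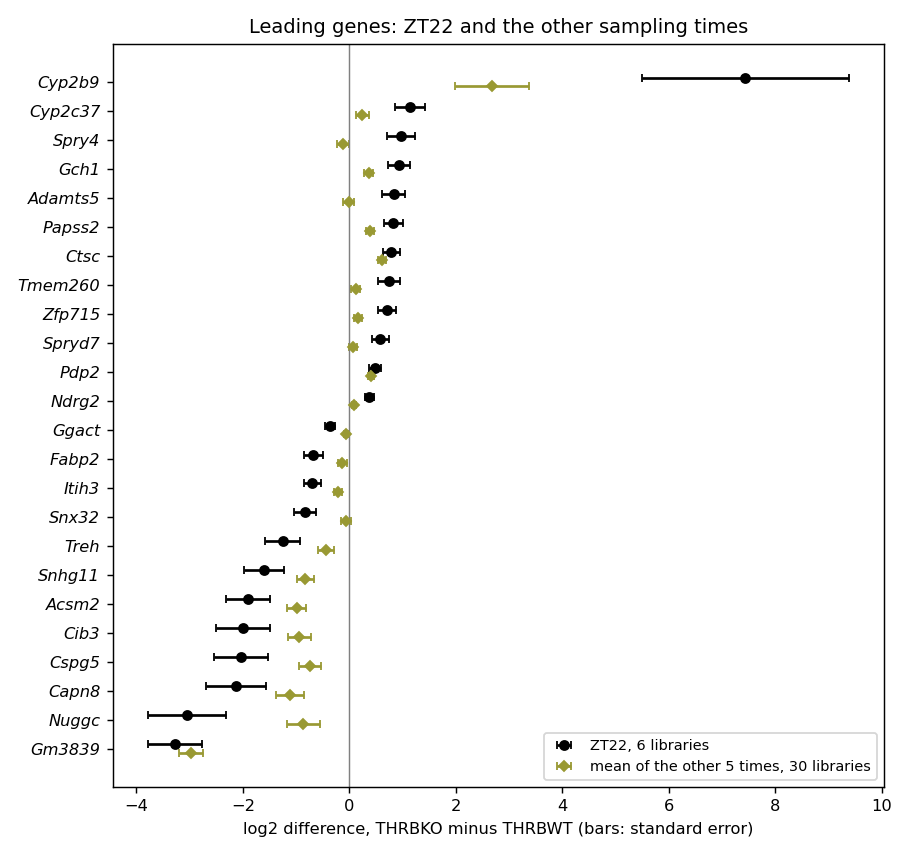
Log2 difference, THRBKO minus THRBWT, with its SE, for each of the 24 named genes at ZT22 and as the mean over the other 5 sampling times. Most points at the other times lie on the same side of 0 as at ZT22 and nearer to it, and Gm3839 is nearly as low at the other times (-2.97) as at ZT22 (-3.28).

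Among 17 genes of thyroid hormone receptors, deiodination and transport, none passed the edgeR test without a block. An unadjusted p under 0.05 was found for 3, all lower in THRBKO mice (beside 2.23% of all members). Dio1 was at 116.4, 83.3 and 62.1 CPM in THRBWT and 58.3, 38.9 and 32.0 CPM in THRBKO mice. Every knockout was below every control, and in both groups mouse a had the highest and mouse c the lowest level. The log2 difference of Dio1 was -1.02 (SE 0.345, 95% interval -1.73 to -0.31, unadjusted p = 0.00619, adjusted p = 0.746), and at the other 5 times Dio1 fell by a mean of 0.95 on the log2 scale (adjusted p = 0.00100). With the mouse letter as a block in the edgeR fit, Dio1 passed at ZT22 (adjusted p = 0.00631). The labels do not say that equal letters mark paired mice. The change between ZT22 and the other times had an unadjusted p of 0.862. The other 2 were Ttr, the plasma carrier transthyretin (log2 difference -0.30), and Slco1a1, an organic anion carrier (-0.47).

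Of 30 classical thyroid hormone targets of liver, none passed in edgeR without the block. An unadjusted p under 0.05 was found for 2, Dio1 and Apoa1, the main protein of high-density lipoprotein. Both were lower in THRBKO mice (beside 2.23% of all members at such a p). Apoa1 was at 8866, 7354 and 8559.9 CPM in THRBWT and 6872, 5473 and 6731 CPM in THRBKO mice, with all knockouts below the controls (log2 difference -0.38, SE 0.128, adjusted p = 0.746). The median over the 30 targets was 0.08, beside 0.02 over all members. Averaged over the 30 genes, the log2 level relative to the THRBWT mean was 0.07, 0.01 and -0.08 in THRBWT and -0.03, 0.02 and 0.06 in THRBKO mice, so the groups overlapped.

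The list of 30 CAR and PXR targets and P450s held the most genes with low p. None passed in edgeR, while DESeq2 called Cyp2b9 (adjusted p = 0.00567) and Cyp2c37 (adjusted p = 0.0314). In edgeR 11 had an unadjusted p under 0.05 with higher and 1 with lower values in THRBKO mice (beside 2.59% and 2.23% of all members). The groups did not overlap for 9 genes above (30%, beside 5.51% of all members) and 1 below (3.33%, beside 4.59%), and the median log2 difference was 0.31 at ZT22 and 0.07 at the other times. Por, the reductase that passes electrons to the microsomal P450s, was at 169, 191 and 132 CPM in THRBWT and 219, 333 and 204 CPM in THRBKO mice (log2 difference 0.62, SE 0.181, unadjusted p = 0.00179). Cyp2a22 was at 0.531, 1.02 and 1.01 CPM in THRBWT and 2.04, 18.1 and 2.43 CPM in THRBKO mice. Cyp2c54 was at 219, 214 and 202 CPM in THRBWT and 237, 436 and 291 CPM in THRBKO mice. In these examples THRBKO mouse b was the highest of the 6. Cyp2c29 was at 1288, 1111 and 1205 CPM in THRBWT and 1357, 1603 and 1727 CPM in THRBKO mice, and here mouse c was higher than mouse b. Averaged over the 30 genes, the log2 level relative to the THRBWT mean was 0.06, 0.06 and -0.12 in THRBWT and 0.40, 1.05 and 0.33 in THRBKO mice. Without THRBKO mouse b the median was 0.12 and 2 of the 30 genes had an unadjusted p under 0.05, both higher.

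Of 21 tested genes that are higher in female than in male liver, 9 had an unadjusted p under 0.05. All 9 had higher values in the male THRBKO mice (beside 2.59% of all members). None passed in edgeR without a block, while Cyp2b9 was called by DESeq2 (adjusted p = 0.00567) and with the mouse letter as a block (adjusted p = 0.0293). The groups did not overlap for 4 genes above (19%, beside 5.51% of all members) and 1 below (4.76%, beside 4.59%). Fmo2, a flavin monooxygenase, was at 10.1, 10.04 and 9.95 CPM in THRBWT and 16.7, 25.8 and 14.5 CPM in THRBKO mice (log2 difference 0.92, SE 0.263, unadjusted p = 0.00143). All knockouts were above all controls. Cux2, a transcription factor of female liver, was at 0.332, 0.543 and 0.164 CPM in THRBWT and 0.304, 6.45 and 0.314 CPM in THRBKO mice. The whole of the log2 difference of 2.75 for Cux2 came from mouse b, and it was -0.17 without that library. The list of 21 had a median of 1.29 at ZT22 and 0.21 over the mean of the other times. As differences of mean log2 CPM, the medians were 0.65 at ZT14 and 0.85 at ZT22, 0.18 at ZT6, 0.17 at ZT10, 0.11 at ZT18 and -0.003 at ZT2. At ZT22 the fitted median was 0.26 without THRBKO mouse b, when 3 genes had an unadjusted p under 0.05. There were 5 of the 21 that are also on the list of CAR and PXR targets, Cyp2b9 among them.

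The list of 28 genes that are higher in male liver had a median of -0.57 at ZT22 and -0.24 over the mean of the other times. As differences of mean log2 CPM, the medians were -0.36 at ZT2, 0.08 at ZT6, -0.18 at ZT10, -0.59 at ZT14, -0.13 at ZT18 and -0.67 at ZT22, so ZT14 was nearly as low as ZT22. None passed in edgeR over the 36 libraries, while Cspg5 was called by DESeq2 (adjusted p = 0.0493) and by the fit to the 6 ZT22 libraries (adjusted p = 0.0119). An unadjusted p under 0.05 was found for 6 genes, all with lower values in THRBKO mice (beside 2.23% of all members). For 7 genes (25%, beside 4.59% of all members) the knockouts lay below the controls without overlap, and for none above (beside 5.51%). Besides Cspg5, these included Slco1a1 at 429, 440 and 431 CPM in THRBWT and 356, 204 and 376 CPM in THRBKO mice. Mup9, a major urinary protein, was at 129.8, 109.3 and 51.0 CPM in THRBWT and 31.7, 30.4 and 31.3 CPM in THRBKO mice, and it fell at the other 5 times (mean log2 difference -1.80, adjusted p = 0.00774). The controls of Mup9 were spread widely and the knockouts lay close together. Mup2 had 1 THRBWT mouse at 1717 CPM, while the other 5 livers had 64.7 to 93.8 CPM. Major urinary protein genes are close copies of each other, and their values are uncertain for that reason. Averaged over the 28 genes, the log2 level relative to the THRBWT mean was 0.12, -0.40 and 0.28 in THRBWT and -0.02, -1.87 and -0.74 in THRBKO mice. Without THRBKO mouse b the median was -0.27 and 1 gene had an unadjusted p under 0.05.

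**Figure D3:**
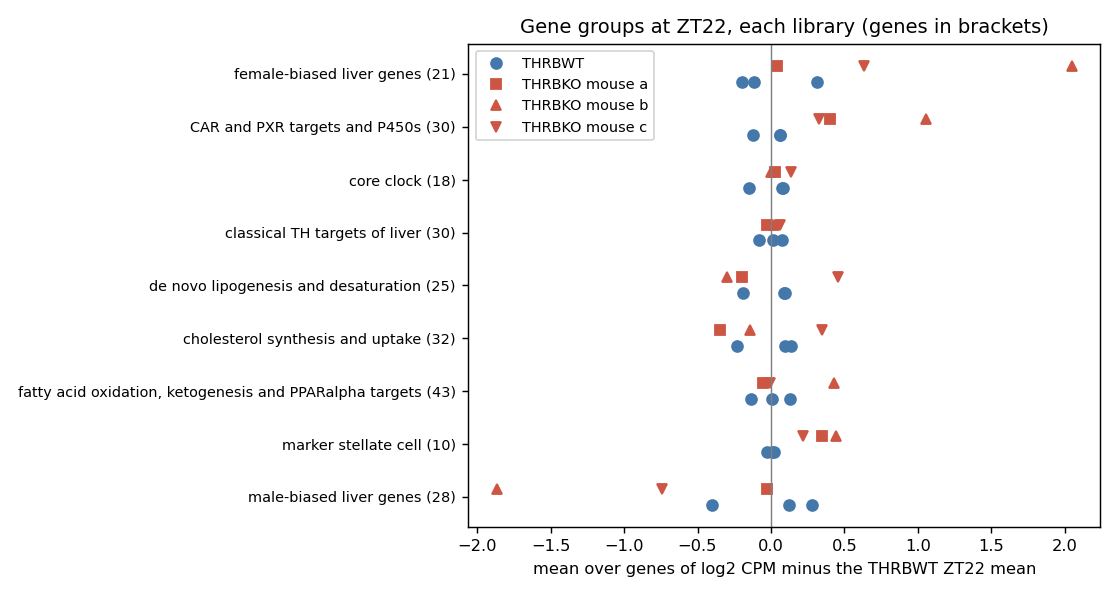
Mean over the genes of 9 gene groups of the log2 CPM minus the THRBWT mean at ZT22, for each of the 6 livers, with the 3 THRBKO mice drawn by different markers. THRBKO mouse b lies farthest from 0 in the female-biased group (2.05), the male-biased group (-1.87) and the CAR and PXR group (1.05).

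In the lists of lipid metabolism, no gene passed the edgeR test over the 36 libraries at ZT22. Acsm2 was called by DESeq2 (adjusted p = 0.00368), with no filter on low counts (0.0163) and in the fit to the 6 ZT22 libraries (0.0258). Fabp2 was called without THRBKO mouse c (0.0324). In the acyl-CoA group of 26 genes, 1 had an unadjusted p under 0.05 with higher and 5 with lower values in THRBKO mice. Over all members, 2.59% had such a p with higher and 2.23% with lower values. Cd36, a fatty acid transporter, was at 16.7, 14.3 and 14.9 CPM in THRBWT and 29.3, 55.2 and 17.5 CPM in THRBKO mice, with mouse b again highest. Fabp1, the liver fatty acid-binding protein, was at 3876, 3481 and 3074 CPM in THRBWT and 3075, 2469.9 and 2768 CPM in THRBKO mice, with the groups just overlapping. The 43 genes of fatty acid oxidation and ketogenesis had 3 and 1 at such a p. None of the 43 was without overlap, beside 5.51% of all members above and 4.59% below. Their median log2 difference was 0.08, and -0.02 without THRBKO mouse b. The 32 genes of cholesterol synthesis and uptake had 1, the lipoprotein receptor Vldlr, at 1.13, 2.14 and 2.03 CPM in THRBWT and 2.79, 9.20 and 3.72 CPM in THRBKO mice. Of 25 genes of lipogenesis and desaturation, none had an unadjusted p under 0.05 at ZT22. Of 18 genes of bile acid synthesis, Akr1d1 was higher, at 162, 181 and 158 CPM in THRBWT and 204, 293 and 213 CPM in THRBKO mice (log2 difference 0.51, adjusted p = 0.746), and Amacr was lower (-0.21).

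The 18 core clock genes showed no unadjusted p under 0.05 at ZT22, and their median log2 difference was 0.17, beside 0.02 over all members. It was -0.02 at the other times, and at ZT22 it ranged from 0.04 to 0.18 with one ZT22 library left out. Per2 was at 35.5, 35.3 and 29.6 CPM in THRBWT and 47.7, 24.1 and 58.7 CPM in THRBKO mice, so the controls lay within the range of the knockouts. Csnk1e, a kinase of the clock proteins, was without overlap at 6.81, 7.61 and 7.23 CPM in THRBWT and 7.68, 8.95 and 9.11 CPM in THRBKO mice. Of the 10 genes of the PAR-bZIP output of the clock, Por had an unadjusted p under 0.05. Without overlap were 3 of the 10 above the controls (30%, beside 5.51% of all members) and 0 below (beside 4.59%). The median log2 difference of the 10 was 0.24 at ZT22 and -0.005 at the other times.

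Among 31 genes of phase II conjugation, 4 had an unadjusted p under 0.05 with higher and 3 with lower values in THRBKO mice (beside 2.59% and 2.23% of all members). Gstt1, a glutathione transferase, was at 326, 272 and 267 CPM in THRBWT and 378, 372 and 388 CPM in THRBKO mice, without overlap. Ugt2b5, a glucuronosyltransferase, was at 816, 703 and 761 CPM in THRBWT and 640.0, 582 and 579.9 CPM in THRBKO mice (log2 difference -0.34, SE 0.121, adjusted p = 0.876), and it fell at the other 5 times (-0.27, adjusted p = 0.0127). Prodh, proline dehydrogenase, was the 1 of 34 urea cycle and amino acid genes with an unadjusted p under 0.05, at 225, 212 and 199 CPM in THRBWT and 141, 167 and 173 CPM in THRBKO mice, and it fell at the other 5 times (-0.46, adjusted p = 0.00299). Foxo1, a transcription factor that insulin restrains, was at 22.7, 23.3 and 21.6 CPM in THRBWT and 28.6, 28.2 and 25.3 CPM in THRBKO mice. Lepr, the leptin receptor, was at 3.02, 2.81 and 2.19 CPM in THRBWT and 3.78, 10.2 and 5.21 CPM in THRBKO mice, and it rose at the other 5 times (0.99, adjusted p = 0.0280). No member of the lists of the unfolded protein response, heat shock, glucocorticoid response, cell cycle or pericentral hepatocytes had an unadjusted p under 0.05 at ZT22. Of the 20 glucocorticoid-responsive genes, 5 lay above the controls without overlap (25%, beside 5.51% of all members) and 0 below (beside 4.59%). Their median log2 difference was 0.11 at ZT22 and 0.01 at the other times. The 12 lists of liver functions not described so far had at most 2 such genes in a direction. These were Foxo1 and Lepr for insulin and feeding, Cux2 and Prlr for the growth hormone axis, and otherwise 1, such as Ndufs1 of oxidative phosphorylation and Pnpla2, a triglyceride lipase, all higher in THRBKO mice, and Gclc of glutathione synthesis, which was lower.

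The position of the named genes was looked at after their values were seen. Of the 24, 8 lie on chromosome 14 (33.3%), as do 483 of the 14193 members (3.4%). With higher knockout values these were Gch1, Ndrg2, Tmem260 and Spryd7, which lie 29.1, 33.9, 30.4 and 43.5 Mb from Thrb toward higher coordinates. With lower values they were Gm3839, 6.30 Mb before Thrb, and Itih3, Nuggc and Ggact, 12.9, 47.6 and 104.8 Mb beyond it. Over all members of chromosome 14, 48 of 483 (9.94%) had an unadjusted p under 0.05 at ZT22, 23 higher and 25 lower in THRBKO mice, and among the other 19 chromosomes the share ranged from 2.94% to 6.67%. Knockout and control values did not overlap for 16.6% of the genes of chromosome 14, 40 above and 40 below, and for 6.93% to 12.4% on the others. At the other 5 times, where 8.93% of all members had an unadjusted p under 0.05, the share was 12.0% for chromosome 14, against 7.27% to 10.3%, and 6 of the 45 genes that passed lie there. Genes that neighbour each other are not independent, and no test was made of these shares. Which strain's sequence each mouse carries along the chromosome was not analysed here.

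Along chromosome 14 the genes with low p were not evenly spread. In the first 20 Mb, which holds Thrb, 7 of 32 genes (21.9%) had an unadjusted p under 0.05 at ZT22 and 50.0% at the other times. In the 161 genes between 40 and 60 Mb the share was 14.9% at ZT22 and 12.4% at the other times, and in the 117 genes between 20 and 40 Mb it was 3.42% and 8.55%. Within 20 Mb of Thrb, 149 members were tested, of which 3 had an unadjusted p under 0.05 with higher and 8 with lower knockout values. Over all members, 2.59% had such a p with higher and 2.23% with lower values. Without overlap were 13 of the 149 above (8.72%, beside 5.51% of all members) and 11 below (7.38%, beside 4.59%). Nid2, a basement membrane nidogen, had a log2 difference of -1.06 at ZT22 and fell at the other 5 times (-0.86, adjusted p = 0.00117). Abhd6, a monoacylglycerol lipase, was at 38.3, 41.9 and 34.4 CPM in THRBWT and 30.05, 31.7 and 27.6 CPM in THRBKO mice, and it fell at the other 5 times (-0.40, adjusted p = 0.00509). 4930452B06Rik was at 1.99, 1.89 and 1.31 CPM in THRBWT and 3.20, 3.74 and 2.83 CPM in THRBKO mice, and it rose at the other 5 times (0.62, adjusted p = 0.00588).

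**Figure D4:**
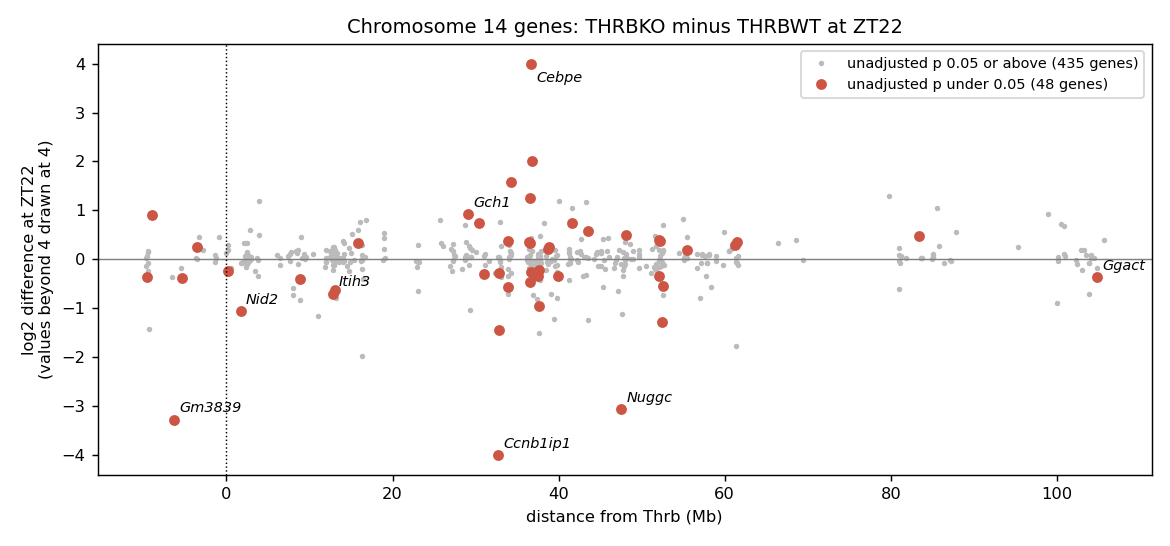
Log2 difference at ZT22, THRBKO minus THRBWT, of the 483 members on chromosome 14 against the distance of each from Thrb in Mb, with the 48 genes at an unadjusted p under 0.05 marked. Marked genes lie on both sides of 0 and are most dense near Thrb and from about 20 Mb to 40 Mb beyond it.

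Cebpe, which encodes a C/EBP transcription factor known from granulocytes, was singled out after its values were seen. The gene lies on the minus strand at chr14:54710360-54712174, 36.7 Mb from Thrb. It had no count in any of the 3 THRBWT libraries of ZT22 and 201, 197 and 381 counts in THRBKO mice a, b and c, that is 5.55, 5.30 and 9.97 CPM. Against a floor of 3 counts per library the mean of the 3 knockouts was at least 69.7-fold higher. In the fit over all 36 libraries Cebpe did not pass (edgeR, adjusted p = 0.932), while DESeq2 and the fit to the 6 libraries of ZT22 alone called it. With no count in the controls, the size of its log2 difference has no upper bound. The fitted value was 10.89 (SE 3.975) in edgeR and 24.7 in DESeq2.

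In the other livers Cebpe was either near 0 or clearly present in both genotypes. Of 18 THRBWT livers 4 had at least 1 CPM, mouse a at ZT2 (7.85 CPM), mice a and b at ZT10 (8.30 and 8.11 CPM) and mouse b at ZT18 (3.90 CPM). Of 18 THRBKO livers 10 did, including all 3 at ZT18 (4.99, 4.39 and 4.41 CPM) and none at ZT6. No liver had a level between 0.0682 and 3.22 CPM. Ppp1r3e and Sall2, on the same chromosome at 36.8 and 34.3 Mb from Thrb, were also chosen after their values were seen. They were high in many of the same livers, and other genes of the region are not described here. Ppp1r3e, a glycogen-targeting subunit of protein phosphatase 1, was at 1.13, 2.08 and 1.34 CPM in THRBWT and 4.198, 4.17 and 9.92 CPM in THRBKO mice at ZT22, and THRBWT mouse b, the 1 control of ZT18 with Cebpe, had 4.77 CPM while mice a and c had 1.86 and 1.42 CPM. Sall2, a zinc finger transcription factor, was at 1.39, 1.02 and 1.83 CPM in THRBWT and 2.76, 4.36 and 5.68 CPM in THRBKO mice at ZT22. The summed level of 6 neutrophil markers at ZT22 overlapped between the genotypes, at 2.72 to 3.17 CPM in THRBWT and 2.36 to 4.36 CPM in THRBKO mice. Of these markers only 3 had enough counts to be tested as genes, and Ly6g had 3 counts or fewer over the 6 libraries. The cell type from which the Cebpe counts came was not tested.

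**Figure D5:**
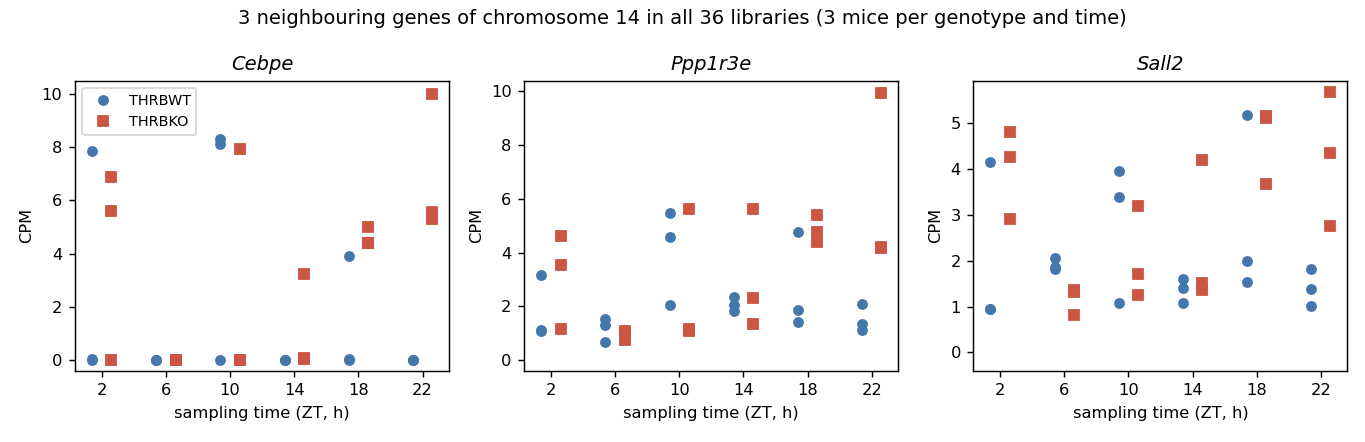
Level in CPM of Cebpe, Ppp1r3e and Sall2 in each of the 36 livers by sampling time and genotype. Cebpe is at or near 0 or above 3 CPM in every liver, and at ZT22 the 3 THRBKO mice are the ones above. Ppp1r3e and Sall2, picked from the same chromosome after their values were seen, are high in many of the same livers.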

How the data were processed

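Poly-A selected, non-directional RNA libraries of mouse liver were sequenced as read pairs by the authors. They aligned reads to GRCm38 with HISAT2 and counted them per gene with featureCounts. The deposited values are raw whole-number counts without normalization. Versions, annotation release, strand setting and the treatment of reads with several matches are not given in the sources used here. Copies and overlapping genes are uncertain for that reason.

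Genotype, sampling time and mouse letter (a, b, c, here replicates 1, 2 and 3) were taken from the sample labels. Genes with at least 100 counts over the 36 libraries (17994) were fitted together by edgeR 4.0.16 (glmQLFit and glmQLFTest, R 4.3.3) after TMM scaling, with 12 group means of genotype and time and 24 residual degrees of freedom. Benjamini-Hochberg adjustment covered all 17994 genes, and only protein-coding rows are reported. A gene was called at an adjusted p under 0.05. CPM values use TMM-scaled library totals, and intervals are at 95%. The 6 ZT22 libraries hold 30613456 to 37534917 counts each, and genes with low counts have wide intervals.

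The genes named are the 12 in each direction with the largest change among those called with a mean of at least 1 CPM in a group, filled to 12 by the smallest unadjusted p, up to 5 genes per list or of the window around Thrb, and the 5 smallest p in each direction against the other times. Lists (42, holding 769 genes) were written from general knowledge and the study. Members and lists were chosen with earlier results of these data known. Lists are described by counts and medians without a test over the list. Some list members are not reported here.

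Library totals and summed markers were compared by two-sided exact permutation tests. The fits were tested on simulated data. Transcript copies were searched in GENCODE M21 with BLAST+ 2.17.0 (alignments of at least 100 bases at an identity of at least 90%), and promoters are RefSeq sequences of GRCm38.p6. Alternatives were RLE factors, filterByExpr, no filter on low counts, robust dispersions, a replicate block, the 6 ZT22 libraries alone, each ZT22 library left out, DESeq2 1.42.0 and, added after seeing the data, counts thinned to equal depth. Libraries of one group differed by far more than sampling noise (chi-square per gene 44.2 to 92.4), so none was counted as a duplicate.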

Additional observations from a re-analysis of the deposited data

How the results depend on the processing

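At ZT22, where 1 gene was called, no filter on low counts gave 12 calls, the fit to the 6 ZT22 libraries alone 7 and DESeq2 14 (8 higher, 6 lower), of which 13 are among the named genes and 6 lie on chromosome 14. Leaving out one library gave 0 to 9 calls, 0 without THRBKO replicate 2 and 9 without THRBKO replicate 3, and 393 to 999 genes at an unadjusted p under 0.05. The cause was not tested. Gm3839 was called in 13 of the 14 alternatives, the exception being the fit without THRBKO replicate 2. At the other 5 times, where 45 genes were called, no filter gave 78, DESeq2 118, and leaving out one ZT22 library 44 to 53. For the 3 tests of ZT22 against other times DESeq2 called 1 gene each, and leaving out one library 0 to 0. With one library left out, the log2 difference ranged from -0.17 to 3.27 for Cux2, from -0.15 to 1.59 for Cyp4a10 and from -0.35 to 2.34 for Egr1, negative without THRBKO replicate 2, and from -3.52 to 0.20 for Mup2, positive without THRBWT replicate 3. The share of chromosome 14 genes with an unadjusted p under 0.05 was above that of the other chromosomes in 14 of 14 alternatives (7.66% to 14.5% against 2.60% to 7.66%).

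With the mouse letter as a replicate block, 6 genes were called at ZT22 (Cyp2b9 and Tmem260 higher, Itih3, Dio1, Cib3 and Gm3839 lower) and 136 at the other 5 times. The labels tie the letters to no shared litter, batch or day. Over all members, the correlations of deviations between same-letter mice at ZT22 were 0.121, 0.110 and 0.0377, so 2 of 3 pairs exceeded 0.1. Over members with a mean log2 CPM above 0 they were 0.200, 0.161 and 0.111, so all 3 did, and 6 of 6 libraries correlated best with their own letter. Over the 6 sampling times, 11 of 18 same-letter pairs exceeded 0.1 over all members. The identifiers in the sample descriptions were adjacent numbers for letters a and b at ZT22, but not for c. No label says what these numbers mean. Whether the letters pair the mice is not settled by these values, and the results without and with the block are both given.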

Other observations

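Genes that are not protein-coding were tested in the same fit but are outside the comparison above. Of 3801 such genes 3 passed an adjusted p under 0.05 at ZT22, all higher in THRBKO mice, and all 3 also passed at the other 5 times. The pseudogene 9030619P08Rik (chr15:75427606-75431829) was at 9.34 ± 0.465 CPM in THRBWT and 62.8 ± 8.02 CPM in THRBKO mice (SD, n = 3; log2 difference 2.75, edgeR adjusted p = 0.00379). Gm10020, a processed pseudogene (chr15:52477617-52478228), was at 11.8, 12.4 and 10.6 CPM in THRBWT and 24.4, 22.6 and 24.3 CPM in THRBKO mice (log2 difference 1.03, adjusted p = 1.35e-08). The processed transcript 1810053B23Rik (chr16:93342504-93366668) was at 0.299, 0.192 and 0.294 CPM in THRBWT and 2.96, 5.51 and 2.25 CPM in THRBKO mice (log2 difference 3.76, adjusted p = 0.0283).

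Gm3839 was not low in every knockout of the series. At ZT10, THRBKO mouse c had 8.72 CPM, in the range of the ZT22 controls, while THRBKO mice a and b had 0.905 and 1.22 CPM. H2-Q1, a class I histocompatibility gene on chromosome 17, was looked at after its values were seen. At ZT22 it was at 7.77, 5.21 and 6.28 CPM in THRBWT and 1.96, 1.53 and 1.02 CPM in THRBKO mice. Its log2 difference was -2.09 (SE 0.895, edgeR adjusted p = 0.988), and the edgeR fit to the 6 ZT22 libraries called it (adjusted p = 0.0289). At the other times its mean log2 difference was -0.07. Single livers there varied widely in both genotypes, from 1.40 to 11.7 CPM in THRBWT and from 0.851 to 15.9 CPM in THRBKO mice.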
